A study of Mus musculus with 13 samples.

Results

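The 10 genes described here carry out antigen presentation by the major histocompatibility complex (MHC): 7 of the class II pathway (H2-Aa, H2-Ab1, H2-Eb1, Cd74, H2-DMa, H2-DMb1 and Ciita) and 3 of class I (H2-K1, H2-D1 and B2m). They were found as the non-control probes whose gene name on the array is one of these symbols or an older synonym (Ciita stands there as C2ta). This gave 19 probes of 41174, and all 10 genes were among the 20392 genes tested. The RNA came from livers of 13 male C57BL/6 mice, each hybridised to an Agilent 1-colour whole-genome array, after 5 months on a western-style diet rich in fat. There were 3 TEKI mice, labelled with the SIRT1 TE KI allele, 5 TAKI mice, labelled with the SIRT1 TA KI allele, and 5 WT mice with wild-type SIRT1. SIRT1 is an NAD-dependent protein deacetylase, and the alleles are read here as knock-ins of glutamate (TE) and alanine (TA) at threonine 522, a phosphorylation site. The labels do not give the number of mutant copies per mouse, and no group ate another diet, so all comparisons are between genotypes on the fatty diet. The question was whether either substitution changes the level of these genes in liver.

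Class II molecules are pairs of an alpha and a beta chain that show peptides from engulfed material to helper T cells. They are made mainly by dendritic cells, B cells and activated macrophages. The invariant chain, Cd74, guards the groove until H2-DM exchanges its remnant for a peptide, and the co-activator CIITA switches the whole set on. Class I molecules, a heavy chain such as H2-K or H2-D with beta-2-microglobulin, are carried by nearly all nucleated cells, hepatocytes included. They show peptides from inside the cell to cytotoxic T cells. Both sets answer to interferon-gamma.

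Levels are given as log2 of the spot intensity minus the 75th percentile of the same array, so a difference of 1 is a doubling. Between 60.5% and 73.1% of the spots were well above background on 12 of the arrays, against 86.8% on the array of TEKI replicate 1. All TEKI arrays shared a slide with WT replicate 5, the TAKI arrays lay on slides that held no other genotype, and slide and scan were the same. For TAKI, slide and genotype therefore cannot be told apart. WT replicate 3 was alone on its slide and was scanned on another day than the other arrays. Sirt1 itself differed by -0.08 ± 0.16 (log2, SE) in TEKI minus WT and by -0.01 ± 0.13 in TAKI minus WT, with adjusted p of 0.891 and 0.989 (limma). In hepatic bulk RNA, fewer cells of a type and less RNA per cell cannot be told apart.

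The upstream sequences of 5 members are printed because the class II genes varied together from mouse to mouse, and class I promoters are shown beside them. CIITA acts through a promoter module in which the Y box, ATTGG read on the coding strand, follows the X boxes at a fixed distance. The 250 bases before the annotated start were searched for TGANG, a loose form of the X2 box, followed on the coding strand by ATTGG with 20 to 32 bases between their first letters. This spacing was chosen after the sequences had been seen. Of 32851 promoters in the RefSeq table (GRCm38), 1.54% held the pair on the coding strand, and 33.9% held ATTGG alone on either strand. Of the 10 genes, 7 had an entry and 6 of these held the pair, namely those printed and H2-K1, while neither entry of H2-DMa did. Both H2-DMa entries lie inside that gene's annotated span (chr17:34119693-34139101). Starts elsewhere in the span were not searched, so the absence covers these entries only. The 120 bases before the start are written 5′ to 3′ on the coding strand, with TGANG and ATTGG of such pairs in capitals. Matches to TGANG outside this spacing, as in H2-Eb1 and H2-DMb1, stay in small letters. They lie at chr17:34287824-34287943 (minus strand) for H2-Aa, chr17:34305747-34305866 (plus) for H2-Eb1, chr17:34153071-34153190 (plus) for H2-DMb1, chr17:35262974-35263093 (plus) for H2-D1 and chr2:122147567-122147686 (plus) for B2m.
H2-Aa: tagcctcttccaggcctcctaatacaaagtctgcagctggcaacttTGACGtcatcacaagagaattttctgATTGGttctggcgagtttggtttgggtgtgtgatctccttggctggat
H2-Eb1: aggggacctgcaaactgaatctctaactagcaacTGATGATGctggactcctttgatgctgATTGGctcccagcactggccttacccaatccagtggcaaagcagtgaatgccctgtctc
H2-DMb1: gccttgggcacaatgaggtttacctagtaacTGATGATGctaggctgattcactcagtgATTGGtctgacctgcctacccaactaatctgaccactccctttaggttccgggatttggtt
H2-D1: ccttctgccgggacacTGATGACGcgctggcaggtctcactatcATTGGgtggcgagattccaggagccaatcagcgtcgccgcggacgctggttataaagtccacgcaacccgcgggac
B2m: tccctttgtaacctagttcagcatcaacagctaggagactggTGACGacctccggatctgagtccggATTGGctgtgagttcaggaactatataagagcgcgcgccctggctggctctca
The pair stood in promoters of both classes. Since its spacing was chosen after these sequences had been seen, this is no test against the share of all promoters. ATTGG began 48 bases before the start in H2-Aa, 59 in H2-Eb1, 61 in H2-DMb1, 76 in H2-D1 and 53 in B2m. These letters are a description of the reference genome and say nothing of which factor was bound in these livers.

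No member of either class passed the test in any genotype comparison. The alpha chain gene H2-Aa had 1.54, 1.61 and -0.52 in TEKI livers. It had 0.39, 2.08, 0.70, 1.34 and 0.86 in TAKI livers, against 0.83, 0.91, 1.64, 0.84 and 1.18 in WT livers. TEKI replicate 3 lay below every other liver, TAKI replicate 2 above every other, and the 3 groups overlapped. H2-Ab1, which encodes the beta chain that pairs with H2-Aa, had 5.08, 5.10 and 3.24 in TEKI livers, then 3.83, 5.76, 4.14, 5.01 and 4.63 in TAKI livers, against 4.23, 4.78, 4.92, 4.82 and 4.58 in WT livers. The same livers were at the extremes. H2-Eb1, the beta chain of the other class II molecule, had 2.78, 2.73 and 1.44 in TEKI livers, then 1.70, 3.53, 1.90, 2.61 and 2.35 in TAKI livers, against 2.05, 2.43, 2.79, 2.45 and 2.30 in WT livers. Its highest and lowest livers were again TAKI replicate 2 and TEKI replicate 3.

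**Figure D1:**
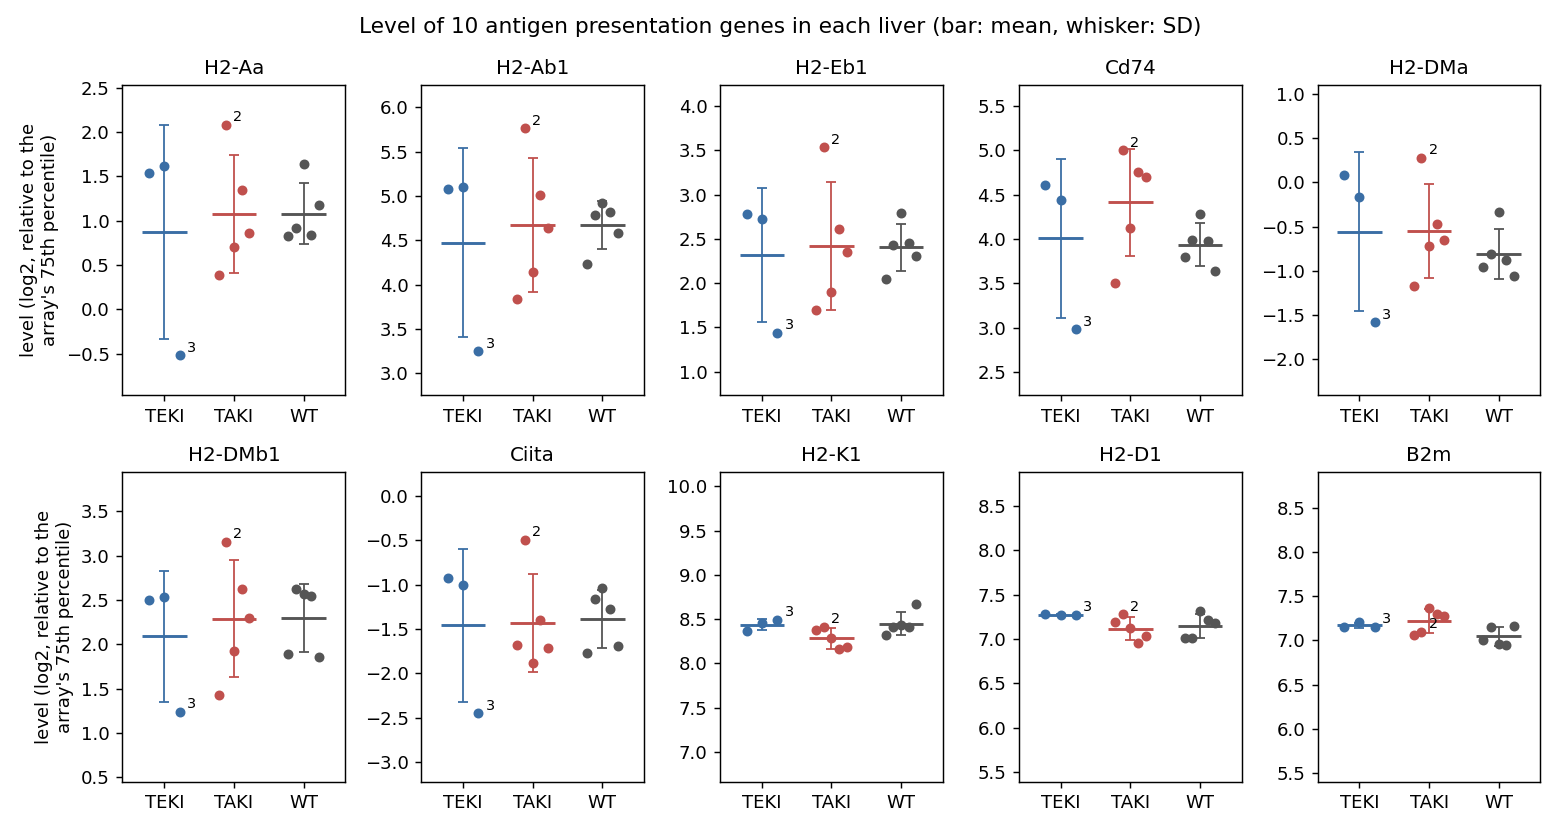
Level of each of the 10 genes (log2 minus the 75th percentile of its array) in TEKI (n = 3), TAKI (n = 5) and WT (n = 5) livers. Points are mice, the bar is the mean, the whisker the SD, and all panels span 3.5 log2 units. TAKI replicate 2 and TEKI replicate 3 are numbered, and they are the highest and the lowest liver in each of the 7 class II panels, while the points of H2-K1, H2-D1 and B2m lie close together.

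The chain genes' means were accordingly close. H2-Aa averaged 0.88 ± 1.21 in TEKI, 1.08 ± 0.66 in TAKI and 1.08 ± 0.34 in WT livers (SD). Its difference was -0.20 in TEKI minus WT (95% interval -1.27 to 0.86, adjusted p = 0.920, limma) and -0.01 in TAKI minus WT (-0.93 to 0.91, adjusted p = 0.998, limma). Differences of H2-Ab1 were -0.19 ± 0.47 in TEKI minus WT and 0.01 ± 0.41 in TAKI minus WT (SE), and those of H2-Eb1 were -0.09 ± 0.40 and 0.02 ± 0.35 in the same order. Intervals of this width still include a change of about 0.7 log2 units in either direction.

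Cd74, the invariant chain that escorts class II molecules through the cell, had 4.61, 4.44 and 2.98 in TEKI livers, then 3.51, 5.00, 4.12, 4.76 and 4.70 in TAKI livers, against 3.80, 3.99, 4.29, 3.98 and 3.64 in WT livers. It had the largest class II difference from WT, 0.48 in TAKI livers (95% interval -0.26 to 1.22, adjusted p = 0.600, limma), where 3 of 5 TAKI livers lay above the highest WT liver and 1 below the lowest. In TEKI minus WT it was 0.07 ± 0.39 (SE). The alpha chain of the peptide exchanger, H2-DMa, had 0.08, -0.17 and -1.58 in TEKI livers, then -1.17, 0.28, -0.72, -0.48 and -0.66 in TAKI livers, against -0.96, -0.81, -0.33, -0.88 and -1.06 in WT livers. Its mean difference was 0.25 ± 0.38 in TEKI minus WT and 0.26 ± 0.33 in TAKI minus WT (SE), with adjusted p of 0.857 and 0.800 (limma). H2-DMb1, the exchanger's beta chain, had 2.50, 2.53 and 1.24 in TEKI livers, then 1.43, 3.16, 1.93, 2.63 and 2.30 in TAKI livers, against 1.90, 2.62, 2.57, 2.55 and 1.86 in WT livers. Ciita, the class II co-activator, had -0.92, -1.0 and -2.45 in TEKI livers, then -1.68, -0.50, -1.89, -1.40 and -1.71 in TAKI livers, against -1.77, -1.16, -1.04, -1.28 and -1.69 in WT livers. H2-DMb1 and Ciita differed from WT by between -0.21 and -0.01 in both knock-ins, and in both genes the single lowest liver was TEKI replicate 3.

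H2-K1, a classical class I heavy chain, had 8.37, 8.45 and 8.49 in TEKI livers, then 8.38, 8.42, 8.28, 8.16 and 8.18 in TAKI livers, against 8.32, 8.41, 8.44, 8.41 and 8.67 in WT livers. TAKI minus WT was -0.17 (95% interval -0.36 to 0.03, adjusted p = 0.444, limma). H2-D1, the other classical heavy chain, had 7.28, 7.27 and 7.28 in TEKI livers, then 7.19, 7.28, 7.13, 6.96 and 7.03 in TAKI livers, against 7.01, 7.01, 7.32, 7.22 and 7.18 in WT livers. B2m, the light chain shared by all class I molecules, had 7.16, 7.20 and 7.15 in TEKI livers, then 7.06, 7.10, 7.36, 7.30 and 7.28 in TAKI livers, against 7.01, 7.16, 6.96, 6.95 and 7.16 in WT livers. Here 3 of 5 TAKI livers lay above the highest WT liver, and the difference was 0.17 (95% interval -0.02 to 0.36, adjusted p = 0.409, limma), the lowest adjusted p of any member in any comparison. All class I groups overlapped. The widest interval of a class I difference reached 0.23 to each side with these probes and this scaling. Other probes and scalings moved class I values.

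Over the 10 genes, 0 passed an adjusted p of 0.05 with limma in each of the 3 comparisons, and 0 had an unadjusted p under 0.05, beside 14.4% of all genes in TAKI minus WT, 11.4% in TEKI minus WT and 11.9% in TEKI minus TAKI. Among all 20392 genes, 2.79% passed in TAKI minus WT, 0.0049% in TEKI minus WT and 3.4% in TEKI minus TAKI. The groups overlapped for every member in every comparison. Over all genes the groups did not overlap for 7.34% in TAKI minus WT, 3.64% in TEKI minus WT and 8.15% in TEKI minus TAKI. The median difference of the 7 class II genes was -0.09 in TEKI minus WT, beside 0.08 over all genes, and 0.01 in TAKI minus WT, beside 0.00. The 3 class I genes had medians of 0.12 in TEKI minus WT and -0.03 in TAKI minus WT. In TEKI minus TAKI, all 7 class II genes lay below 0, with a median of -0.20 beside 0.07 over all genes, and adjusted p of 0.752 or more (limma).

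**Figure D2:**
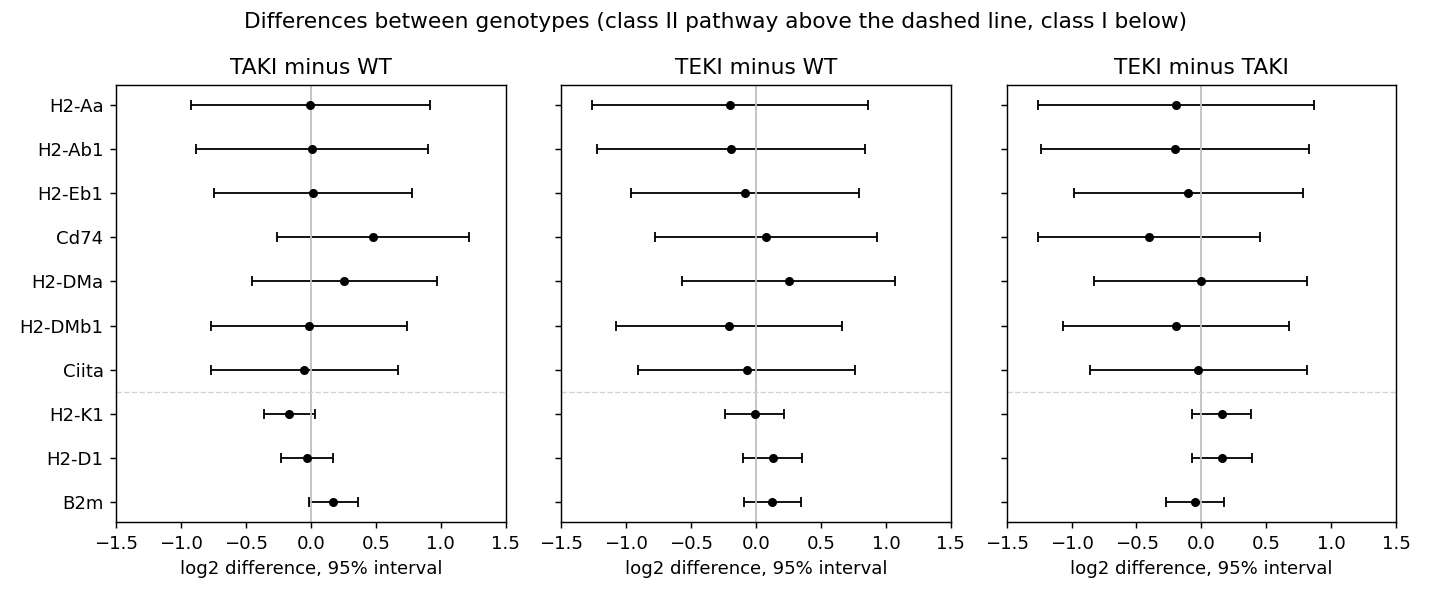
Difference between genotypes for each gene, on the log2 scale, with its 95% interval from limma. Every interval spans 0, and the class II intervals (above the dashed line) are several times wider than those of H2-K1, H2-D1 and B2m.

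For most class II genes the sign of the difference changed when single mice were left out. In TAKI minus WT, Cd74 and H2-DMa stayed above 0 in all 13 such fits (0.33 to 0.71 and 0.05 to 0.41), while the other 5 genes did not keep their sign. Fits that left out a TEKI mouse could not change this difference, so only those without a TAKI or WT mouse bear on it. Without TEKI replicate 3, all 7 class II genes were above WT in TEKI livers, by 0.22 to 0.76, and all 7 above TAKI, by 0.11 to 0.51, with adjusted p of 0.404 or more (limma). Without TAKI replicate 2, TEKI minus TAKI had 6 of 7 above 0, with a median of 0.07, and TAKI minus WT had 2 of 7 above 0, with a median of -0.26. Without the low TAKI replicate 1, all 7 lay above WT in TAKI livers, by 0.01 to 0.71. Within the slide that held all TEKI mice and WT replicate 5, TEKI minus WT was above 0 for 5 of 7, between -0.30 and 0.50. This sets 3 mice against 1, so it is given as a value with no test.

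The class II genes varied together from mouse to mouse. TAKI replicate 2 was the highest of the 13 livers in 7 of 7 class II genes, and TEKI replicate 3 the lowest in 7 of 7. TAKI replicate 2 stood 0.86 to 1.14 above the mean of the 13 livers, depending on the gene, and TEKI replicate 3 stood 0.93 to 1.55 below it. The highest and lowest liver differed 3.62-fold for H2-DMa and 6.07-fold for H2-Aa, the narrowest and the widest of the class II genes. For class I the same span was 1.29-fold to 1.43-fold. The genes are not one cluster in the genome: 5 of the class II genes lie on chromosome 17, Ciita on chromosome 16 and Cd74 on chromosome 18, while H2-K1 and H2-D1 share chromosome 17 with them and B2m lies on chromosome 2.

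The SD within genotypes was 0.55 to 0.72 for class II genes, against 0.11 to 0.12 for class I and a median of 0.29 over all genes. Because spread can depend on level, each gene was also set among genes within 0.5 log2 units of its own mean level. There the class II genes ranked between the 91.3 and the 98.7 percentile of SD, and the class I genes between the 3.33 and the 9.62 percentile. Spread differed within genotypes too: H2-Aa spanned 4.38-fold over the 3 TEKI livers and 3.24-fold over the 5 TAKI livers, against 1.75-fold over the 5 WT livers. A test of this difference in spread was not run.

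Over the 13 livers, H2-Aa had a Pearson r of 0.95 with H2-Ab1, 0.94 with H2-Eb1, 0.91 with H2-DMa, 0.90 with Ciita, 0.85 with H2-DMb1 and 0.83 with Cd74. With H2-D1 it was 0.16, with H2-K1 -0.02 and with B2m -0.07. Within class I, r was 0.60 between H2-K1 and H2-D1, -0.40 between H2-K1 and B2m and -0.41 between H2-D1 and B2m. Each array's scaling is shared by all its genes, so the values are descriptions. When TEKI replicate 3 and TAKI replicate 2, the livers farthest from the median of H2-Aa, were left out, r over the remaining 11 livers was 0.91 with H2-Eb1, 0.86 with H2-Ab1, 0.82 with H2-DMa, 0.75 with Ciita, 0.68 with H2-DMb1 and 0.59 with Cd74. The likeness was therefore present, though lower, in the other mice.

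Among 13239 named genes well above background on all arrays, the 5 outside the members most like H2-Aa were H2-DMb2 (r = 0.96), Ankrd6 (0.94), Rnase6 (0.92), Ptpn18 (0.92) and BC028528 (0.91). H2-DMb2 encodes a second beta chain of the peptide exchanger, and Rnase6 a secreted ribonuclease with antimicrobial action. Those most like B2m were Zfp983 (0.90), Rbmxl1 (0.85), Uba2 (0.83), 5730507C01Rik (0.83) and Zfp971 (0.82), over the same 13 livers. Apart from H2-DMb2, none of these genes is on the lists of antigen presentation genes used here.

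**Figure D3:**
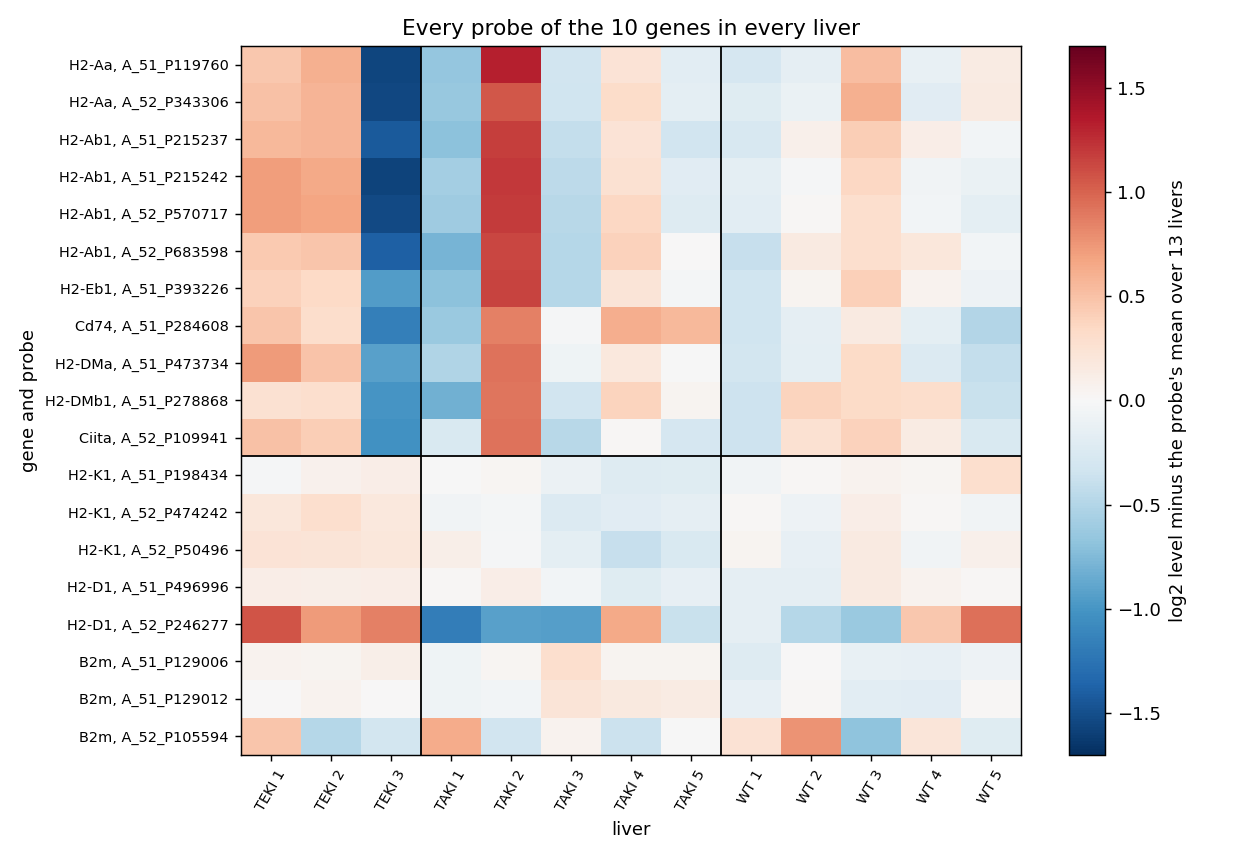
All 19 probes of the 10 genes (rows) in the 13 livers (columns, TEKI, TAKI and WT from left to right), coloured by the log2 level minus the mean of that probe over the livers. The 11 class II probes, above the line, share a red column in TAKI replicate 2 and a blue one in TEKI replicate 3, which the class I probes below it do not show.

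Separate probes gave the same picture for class II. H2-Ab1 was measured by 4 probes, whose 6 pairs had r of 0.96 to 1.00 over the 13 livers, and the 2 probes of H2-Aa had r of 0.99. A pair of H2-Ab1 probes is printed because they overlap in sequence but not in every letter, in a gene known for its differences between mouse strains. They share 31 aligned bases, of which 29 match (in capitals). The mismatches, written with positions counted from the 5′ end of the first probe and its base first, are T5A and T20A. The first lies at chr17:32342603-32342662 (plus strand, build mm7 as in the scanner files), and no position of the second is used here.
H2-Ab1 probe A_51_P215242: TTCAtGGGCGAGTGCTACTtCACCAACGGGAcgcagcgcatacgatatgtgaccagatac
H2-Ab1 probe A_52_P570717: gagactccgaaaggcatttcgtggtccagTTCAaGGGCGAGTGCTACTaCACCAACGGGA
Levels from the first were 1.94, 1.88 and -0.35 in TEKI livers, then 0.65, 2.43, 0.78, 1.49 and 1.04 in TAKI livers, against 1.07, 1.21, 1.58, 1.17 and 1.12 in WT livers. Deviations from each probe's own mean differed between the pair by at most 0.09 in any liver.

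Another H2-Ab1 probe stood on 10 spots spread over the array. On them TEKI replicate 3 read 1.35 to 1.45 and TAKI replicate 2 read 3.94 to 4.06, while the SD between spots of an array was 0.02 to 0.06. The order of these livers was thus the same at every spot. For comparison, 10 spots of an H2-K1 probe read 8.43 to 8.57 in TEKI replicate 3 and 8.26 to 8.60 in TAKI replicate 2, and their SD between spots was 0.03 to 0.09.

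**Figure D4:**
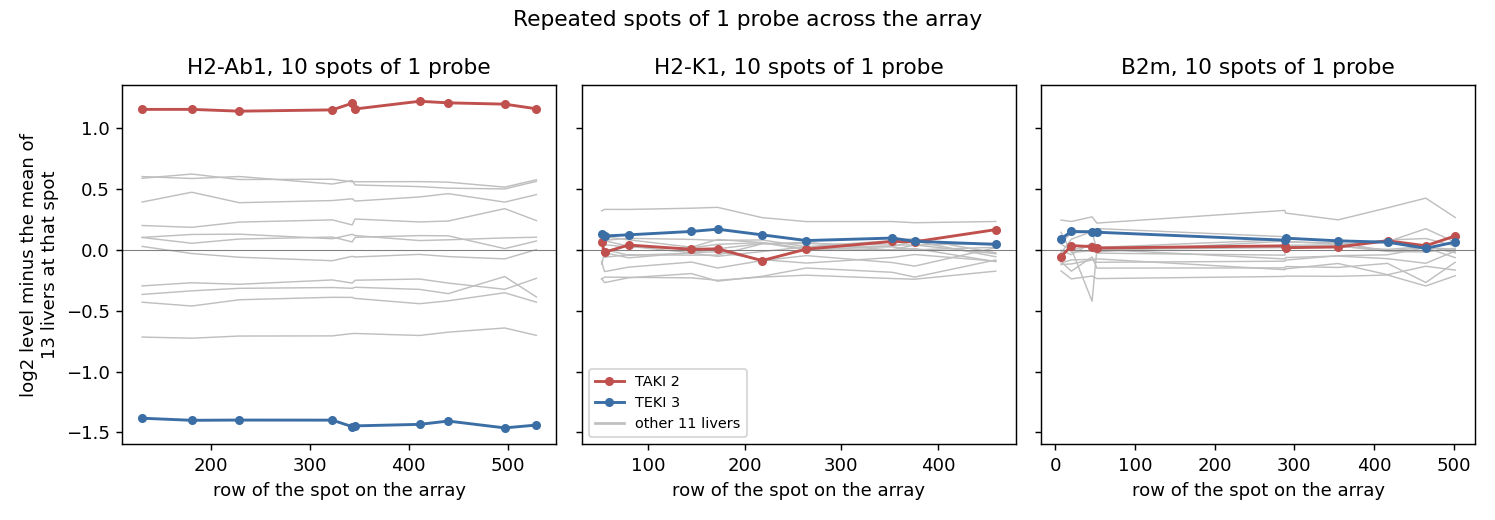
Log2 level at each of 10 spots of the same probe, minus the mean of the 13 livers at that spot, against the row of the spot, for H2-Ab1, H2-K1 and B2m. TAKI replicate 2 and TEKI replicate 3 are coloured and the other 11 livers grey. For H2-Ab1 the coloured lines stay apart from the rest at all rows, while for H2-K1 and B2m they run among the others.

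Probes of class I genes differed more among themselves. The H2-K1 probe used above put TEKI minus TAKI at 0.16 ± 0.10 (SE). The probe A_52_P474242 read 6.69, 6.79 and 6.68 in TEKI livers, then 6.44, 6.47, 6.27, 6.30 and 6.35 in TAKI livers, against 6.52, 6.42, 6.61, 6.52 and 6.43 in WT livers. All 3 TEKI livers lay above all others, and TEKI minus TAKI was 0.35 ± 0.09 (SE, adjusted p = 0.0653 over all probes, limma). The other, A_52_P50496, also placed every TEKI liver above all others, with 0.37 ± 0.12 (SE, adjusted p = 0.194, limma). Heavy chain genes resemble each other closely, and how far each probe also reads a neighbouring class I gene was not tested.

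Tested one by one over 29931 probes, 0 of the 19 member probes passed with limma in any comparison. The share of all probes that passed was 2.21% in TAKI minus WT, 0.00334% in TEKI minus WT and 2.87% in TEKI minus TAKI. At an unadjusted p under 0.05 there were 0 member probes in TAKI minus WT, 1 in TEKI minus WT and 3 in TEKI minus TAKI, of 19 each. Over all probes the shares were 13.3%, 10.7% and 11.9% in the same order. Groups did not overlap for 3 of 19 in TEKI minus WT and 3 of 19 in TEKI minus TAKI, beside 3.44% and 7.73% of all probes, and for 0 in TAKI minus WT, beside 6.51%. The probes concerned were both H2-K1 probes above, a B2m probe (TEKI minus WT) and A_52_P246277 (TEKI minus TAKI). The last carries the name H2-D1 but was well above background on 7 of 13 arrays. The scanner files describe it as a thymus-leukemia antigen and place it at chr17:34358688-34358747 (mm7), away from the other H2-D1 probe at chr17:33361850-33362082, so it is not read as H2-D1 here. The 10-spot B2m probe read 5.96, 5.94 and 5.99 in TEKI livers, then 5.83, 5.93, 6.19, 5.95 and 5.95 in TAKI livers, against 5.68, 5.91, 5.77, 5.76 and 5.82 in WT livers, a difference of 0.18 ± 0.10 (SE) in TEKI minus WT. The remaining B2m probe, A_52_P105594, ranged from -1.54 to -0.09 and had r of -0.07 with each of the other 2, which had r of 0.84 with each other.

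Other genes of the pathway were taken from lists chosen with earlier results of these data known. Of 12 tested genes of class I peptide supply and loading (14 listed, without Psme2 and Nlrc5), 0 passed in any comparison, with medians of 0.07 in TEKI minus WT and -0.06 in TAKI minus WT. The smallest p went to Pdia3, a disulphide isomerase of the loading complex, at -0.44 ± 0.16 in TEKI minus WT (SE, adjusted p = 0.398), and to Canx, the chaperone calnexin, at -0.26 ± 0.10 in TAKI minus WT (SE, adjusted p = 0.253). Psmb8, an immunoproteasome subunit, differed by 0.27 ± 0.14 in TEKI minus WT and 0.18 ± 0.12 in TAKI minus WT (SE). Of 9 tested class II accessory genes (11 listed, without H2-Ob and H2-Eb2), 0 passed. H2-Oa, part of the inhibitor of H2-DM, differed by 0.62 ± 0.33 in TEKI minus WT and 0.46 ± 0.28 in TAKI minus WT (SE). Its adjusted p was 0.483 and 0.535 (limma). This dim gene had -1.49, -1.58 and -2.915 in TEKI livers, against a WT mean of -2.61. TEKI replicate 3 was its lowest liver of the 13.

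Of 8 non-classical class I genes, 0 passed, with medians of 0.11 in TEKI minus WT and -0.09 in TAKI minus WT. H2-T24 differed by 0.78 ± 0.27 in TEKI minus WT (SE, adjusted p = 0.398, limma). This dim gene had -2.89, -4.25 and -3.94 in TEKI livers, against a WT mean of -4.47. Its highest value came from TEKI replicate 1, the array with the most spots above background. H2-T23, which encodes the ligand of inhibitory receptors on natural killer cells, differed by 0.18 ± 0.08 in TEKI minus WT (SE). Cd1d1, which presents lipids to natural killer T cells, differed by -0.21 ± 0.11 in TAKI minus WT. Of 13 interferon-gamma signalling genes, 0 passed. Cxcl9, a chemokine induced by interferon-gamma, differed by 0.79 ± 0.35 in TEKI minus WT and 0.40 ± 0.30 in TAKI minus WT (SE). The kinase Jak2 differed by 0.24 ± 0.12 and 0.21 ± 0.11 (SE) in the same order. All of these p-values are adjusted over all genes of the limma fit.

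Of 6 co-stimulation genes, 1 passed: Cd80, a ligand of CD28 on T cells, was higher in TEKI than in TAKI livers. It had -2.39, -4.02 and -3.38 in TEKI livers, then -5.61, -4.99, -4.84, -5.33 and -4.99 in TAKI livers, against -4.87, -5.50, -5.20, -5.40 and -4.98 in WT livers. All 3 TEKI livers lay above the others, with a difference of 1.89 ± 0.31 in TEKI minus TAKI (SE, adjusted p = 0.00579, limma) and 1.93 ± 0.31 in TEKI minus WT (SE, adjusted p = 0.170, limma). The probe was dim, well above background on 11 of 13 arrays. Its highest value, -2.39, came from TEKI replicate 1, the array with the most spots above background. TEKI and TAKI arrays shared no slide. A second Cd80 probe, well above background on 6 arrays, gave 0.23 in TEKI minus TAKI, and the mean of both did not pass (adjusted p = 0.262, limma). Leaving out single mice, the difference was 1.45 to 2.26 and still passed, the lowest being that without TEKI replicate 1. Cd86, the other ligand of CD28, differed by 0.02 ± 0.28 in TEKI minus WT and 0.39 ± 0.24 in TAKI minus WT (SE).

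Markers of cells that carry class II were set beside these levels. Levels of a list are sums over its genes on the linear scale, in units of the 75th percentile of the array. The 8 tested dendritic cell markers (9 listed, without Cd209a) summed to 1.62 to 3.35 in TEKI livers, 1.87 to 3.62 in TAKI livers and 1.64 to 2.88 in WT livers. TAKI replicate 2 was the highest of the 13 and TEKI replicate 3 the lowest, at 1.62 beside 1.64 in WT replicate 5. Single genes of the list differed: Itgax, Ccr7 and Batf3 were lowest in TEKI replicate 3, while Zbtb46 was highest there and Xcr1 was lowest in TAKI replicate 2. Itgax and Batf3 were the brightest of the list in TAKI replicate 2 (log2 levels of 0.53 each) and so weigh most in its sum. Itgax is also on the lipid-associated macrophage list. On the dendritic cell list 5 of 8 tested genes were well above background on all arrays, and Siglech on only 4. The 10 macrophage and Kupffer cell markers summed to 79.2 to 190 in TEKI livers, 104 to 194 in TAKI livers and 95.9 to 198 in WT livers. TEKI replicate 3 was again the lowest, and TAKI replicate 2 the fourth highest. The highest sums were 198 in WT replicate 1 and 194 in TAKI replicate 3. Class II genes lay below their means there (median deviations of -0.34 and -0.33). The next, 190 in TEKI replicate 1 and 189 in TAKI replicate 2, came with class II above the means (0.47 and 0.93). The 6 lipid-associated macrophage markers were highest in TAKI replicate 2, at 85.3 in a TAKI range of 12.6 to 85.3, against 16.6 to 41.1 in TEKI and 13.2 to 67.6 in WT livers.

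**Figure D5:**
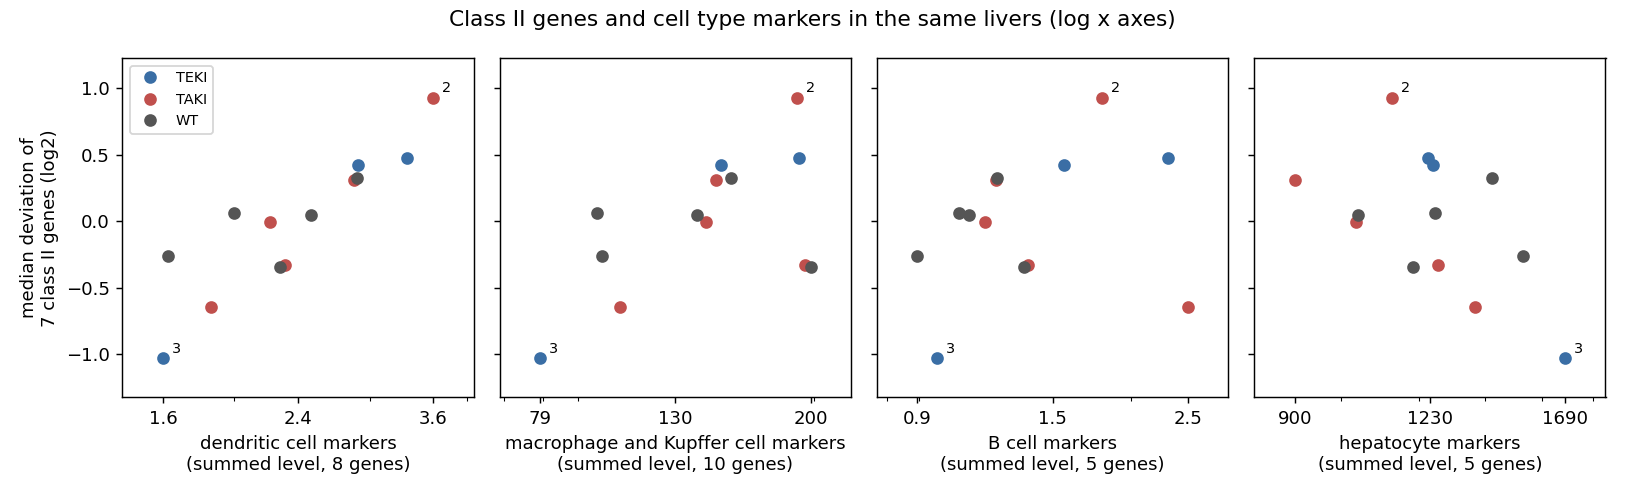
Median deviation of the 7 class II genes from their means over 13 livers (log2) against the summed level of 4 marker lists (log axes, in units of the array's 75th percentile), each point a TEKI, TAKI or WT liver. TAKI replicate 2 and TEKI replicate 3 are numbered. They are at opposite ends of the dendritic cell list, and TEKI replicate 3 is lowest for the macrophage list and highest for the hepatocyte list.

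The 5 tested B cell markers (6 listed, without Blk) summed to 0.96 to 2.30 in TEKI livers and 1.15 to 2.47 in TAKI livers. In WT livers they summed to 0.90 to 1.34. The highest sum was in TAKI replicate 1, a liver low in class II. The next were 2.30 in TEKI replicate 1 and 1.79 in TAKI replicate 2, livers high in class II. The 9 T and NK cell markers, 7 of them well above background on all arrays, summed to 2.25 to 3.20 in TEKI, 1.93 to 2.59 in TAKI and 1.47 to 2.73 in WT livers. The 7 endothelial markers ran from 23.2 to 27.7 in TEKI and 21.2 to 24.6 in TAKI livers, against 15.5 to 23.1 in WT livers. The 5 tested hepatocyte markers (6 listed, without Serpina1a) ran from 1224 to 1687 in TEKI and 897 to 1368 in TAKI livers, against 1039 to 1529 in WT livers, and TEKI replicate 3 was the highest of all. All 13 livers held these hepatocyte markers well above background. The part of these cell types in the class II levels was not tested.

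Among the marker genes reported here, Cd2 passed in TAKI minus WT. This gene, which helps T lymphocytes and NK cells adhere to their targets, was higher by 1.05 ± 0.14 (SE) with an adjusted p of 0.00272 (limma). It had -3.48, -3.53 and -3.96 in TEKI livers, then -3.33, -3.63, -3.44, -3.66 and -3.25 in TAKI livers, against -4.49, -4.49, -4.65, -4.16 and -4.79 in WT livers. The TEKI livers thus also lay above every WT liver, with TEKI minus WT of 0.855 ± 0.163 (SE, adjusted p = 0.222, limma). In TAKI minus WT, Cd2 was not called after quantile normalization, normexp background correction or centring within array regions (adjusted p up to 0.276, limma). Among genes that did not pass, Zbtb46, a transcription factor of dendritic cells, differed by 0.98 ± 0.25 in TEKI minus WT and 0.78 ± 0.22 in TAKI minus WT (SE, adjusted p of 0.398 and 0.0968, limma). Cd79a, a signalling chain of the B cell receptor, differed by 1.43 ± 0.38 in TEKI minus WT and 0.71 ± 0.33 in TAKI minus WT (SE, adjusted p of 0.398 and 0.356, limma). This dim gene had -2.15, -4.12 and -3.87 in TEKI livers, against a WT mean of -4.81. Its highest value came from TEKI replicate 1, the array with the most spots above background. Gpnmb, a glycoprotein of lipid-laden macrophages, differed by -2.07 ± 1.12 in TEKI minus WT, and the phagocytic receptor Mertk by 0.27 ± 0.09 in TAKI minus WT (SE, adjusted p = 0.176, limma). Clec4g, a lectin of liver sinusoidal endothelium, differed by 0.45 ± 0.14 in TEKI minus WT (SE, adjusted p = 0.398, limma).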

How the data were processed

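The deposited scanner files hold, per the file headers, the intensity of each spot after background subtraction and detrending by Agilent Feature Extraction 9.5 on a linear scale. The authors' value table repeated these intensity values with no scaling between arrays, and its column medians ran from 49.1 to 137. Of 45018 spots, 43379 were not controls and held 41174 probes. Non-uniform spots were left out and spots of a probe averaged. Log2 values minus the 75th percentile of each array were tested with limma 3.58.1 (R 4.3.3) in a model of the 3 genotypes over all 13 arrays. The brightest probe of a gene was used if it was well above background on at least 3 arrays. P-values were adjusted over 20392 genes (Benjamini-Hochberg, threshold 0.05). Mice were separate animals. Probes were named with RefSeq accessions and synonyms. Members and lists were chosen with earlier results of these data known. Named genes were every member probe, 2 genes of smallest p per list and knock-in plus any that passed, and the 5 genes most like H2-Aa and B2m. The list genes printed are drawn from these, with 1 gene that passed left unreported here. The number of arrays limits the precision. The model was tested on simulated data. Python 3.11.15 drew the figures. Scaling, background correction, filters, choice of probe, variance model, slide, array position, replicate block and single mice left out were the alternatives tried.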

Additional observations from a re-analysis of the deposited data

How the results depend on the processing

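Under 29 alternatives, 0 of the 10 genes passed in any comparison where the alternative could be run, as with the settings of the report. Among all genes few passed with those settings: 2.79% in TAKI minus WT, 0.0049% in TEKI minus WT and 3.4% in TEKI minus TAKI. In TEKI minus WT, 0 of all genes passed after normexp background correction or with the replicate block. A count of 0 of 10 therefore does not set these genes apart. The fit within the slide of the TEKI mice, 3 against 1, is among the 29 but cannot serve as a test. Replicate numbers were not taken as pairs, because deviations of same-numbered mice from their group means correlated between -0.23 and 0.32. With the replicate number as a block the count of members called was again 0 in each comparison, with adjusted p of 0.497 or more. Of 800 member differences recomputed, 93 had the other sign and 27 moved by at least the SD within genotypes, all 27 in class I genes, and 0 passed. Part of the 800 could not move, because the variance model, the filters and mice of the third genotype left out do not alter a member's difference. The 93 and 27 are therefore low shares of the alternatives that could move it. The lowest adjusted p were 0.0592 with array weights in TAKI minus WT, 0.0653 with every probe tested alone in TEKI minus TAKI and 0.0706 for H2-D1 in TEKI minus TAKI with the mean of its probes, which includes the doubtful probe. Scaling by the median in place of the 75th percentile moved the median of all genes to -0.33 in TEKI minus WT and -0.15 in TAKI minus WT. Under it H2-K1, H2-D1 and B2m differed by -0.42, -0.28 and -0.28 in TEKI minus WT, so the sign of class I differences depends on the scaling. The call of Cd2 was lost in 3 of 26 alternatives and that of Cd80 in 1 of 25. The width of the class II intervals comes from the spread between mice, which was larger in TEKI and TAKI than in WT livers for all 7 genes. These genes varied together, so they are not 7 separate observations. In TEKI livers, replicate 3 stood apart while the other mice were close to each other.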

Other observations

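The H2-Ea probe on the array, chosen after its values were seen, was well above background on 0 of 13 arrays, with levels from -8.54 to -6.80. C57BL/6 mice are known to lack a functional H2-Ea gene, while the partner chain gene H2-Eb1 was well above background on all 13 arrays.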
